A study of Mus musculus with 8 samples.

Results

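The Hoxb cluster is a row of homeobox genes on mouse chromosome 11, and antisense genes, among them Hoxb3os and Hoxb5os, run through it on the opposite strand. The 10 genes described here are Hoxb2 to Hoxb9 (8 coding genes) and these 2 antisense genes, listed by name as genes of the cluster and found in the deposited table of 54116 genes by their GENCODE M21 symbols. Hoxb1, Hoxb13 and the antisense gene Gm11536, which are not on this list, are described apart.

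HOX proteins are transcription factors that tell embryonic cells where along the head-to-tail axis they lie. Genes at the 3′ end of a cluster, such as Hoxb2, are switched on early and reach far towards the head, and genes at the 5′ end, such as Hoxb9, are switched on later and stay in the trunk. Retinoic acid induces the 3′ genes, Polycomb complexes keep unused HOX genes silent, and fibroblasts and other stromal cells of adult organs keep much of the HOX pattern of the body region they come from.

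The cells were mesenchymal stromal cells of the pancreas (pMSCs, 4 libraries), set against mesenchymal stromal cells of inguinal white adipose tissue (iwatMSCs, 4 libraries), a fat depot under the skin of the groin. Both came from the same untreated young adult male C57BL/6J mice on a standard diet, for which no genetic modification is named, several mice were pooled, and CD31-, CD45- and SCA1+ cells were sorted and expanded in culture for 4 days before RNA was taken. Whether each library is a pool of its own is not stated, and the p-values cover no more than the variation among these 8 libraries. The values are FPKM, sequenced fragments scaled to transcript length and library size, summed over the transcripts of a gene, and the depth in reads is unknown.

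Total FPKM per library ranged between 437673 and 458414, and 13092 to 13313 genes reached 1 FPKM. The 8 stromal marker genes, among them Pdgfra, Col1a1 and Dcn, summed to 1303 to 1527 FPKM in pMSCs and 1259 to 1936 FPKM in iwatMSCs, and were thus abundant in both groups. Markers of other pancreatic cells moved with the organ. The 9 acinar enzyme genes summed to 254, 145, 49.3 and 67 FPKM in pMSC replicates 1 to 4, against 1.81 to 3.71 FPKM in iwatMSCs. All 8 that were tested were higher in pMSCs, where 9.02% of all tested genes were higher. Of these only Cela1 averaged at least 1 FPKM in iwatMSCs (2.23 ± 0.843 FPKM). The others entered the test through their pMSC levels, so their calls partly follow from the filter. The 4 epithelial markers summed to 12.2 to 31.9 FPKM in pMSCs and 0.0564 to 0.174 FPKM in iwatMSCs. The 4 pericyte and smooth muscle markers summed to 17.2 to 27.5 FPKM in pMSCs and 3.05 to 5.68 FPKM in iwatMSCs, although the pericyte gene Rgs5 was at most 0.145 FPKM in every library. Markers of nerve, fat and blood cells were low in both organs. Those of Schwann cells and of mature adipocytes summed to under 1 FPKM in every library, and Sox10 was listed at 0 in all 8. The leukocyte markers Cd3e and Itgam were at 0 in all libraries too, and Ptprc never exceeded 0.0327 FPKM. For the whole list of 5, sums were 2.57 to 4.85 FPKM in pMSCs, against 6.64 to 11 FPKM in iwatMSCs. Most of each sum was Cd68, which ranged over 1.45 to 4.03 FPKM in pMSCs, against 6.35 to 11 FPKM in iwatMSCs. Lyz2 had the opposite direction, since its lowest pMSC value (0.815 FPKM) exceeded its highest iwatMSC value (0.285 FPKM), and it was not tested. The 4 endothelial markers summed to 2.34 to 3.65 FPKM in pMSCs and 7.14 to 9.31 FPKM in iwatMSCs, and the 5 mesothelial markers to 8.13 to 23.1 FPKM in pMSCs and 5.72 to 14.6 FPKM in iwatMSCs. Of these, Upk3b and Lrrn4 were at 2.13 to 7.52 and 1.28 to 6.6 FPKM in pMSCs and at 0 in iwatMSCs, and Upk1b was at 1.64 to 6.22 FPKM in pMSCs and at most 0.152 FPKM in iwatMSCs, so these mesothelial markers moved with the organ too. Krt19 went the other way, with 2.41 to 3.8 FPKM in pMSCs and 5.69 to 14.5 FPKM in iwatMSCs. In such bulk RNA, fewer cells of a type and less RNA per cell cannot be told apart.

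**Figure D1:**
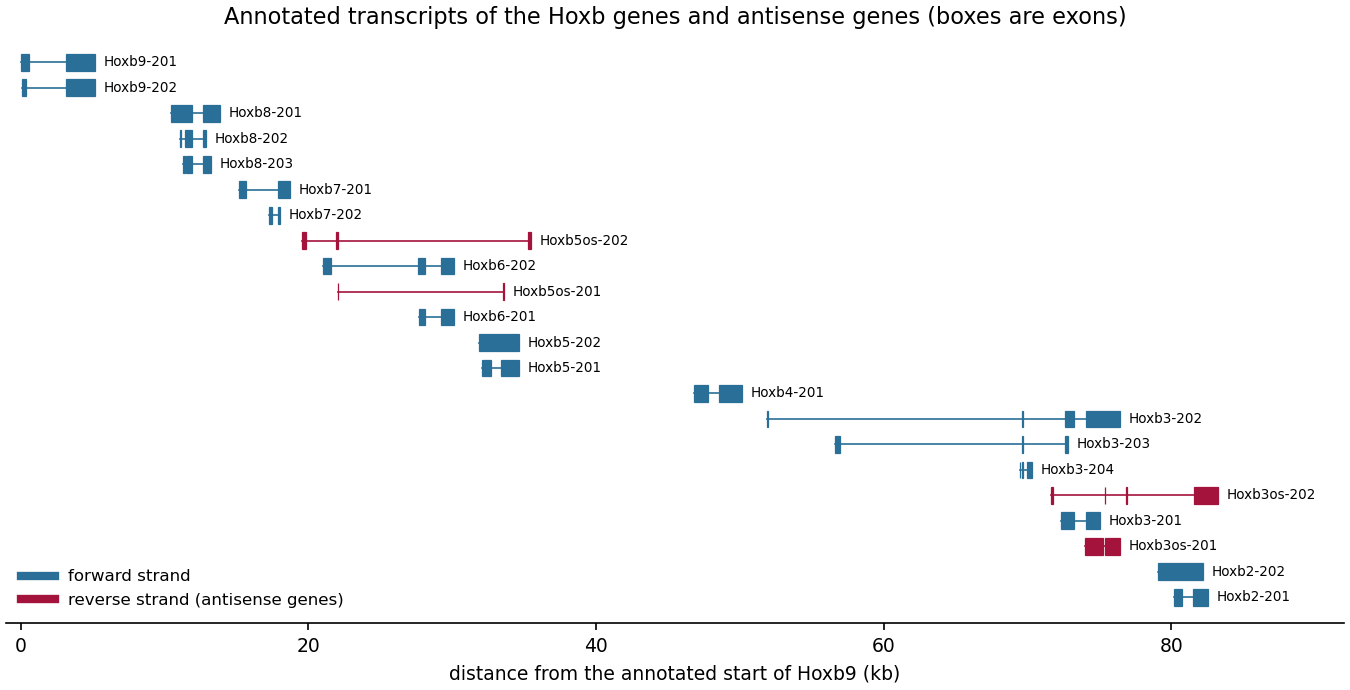
Annotated transcripts of the 10 genes along the cluster, drawn to scale in kb from the start of Hoxb9, with exons as boxes and introns as lines. The coding genes lie on the forward strand, and the antisense transcripts cross Hoxb2, Hoxb3, Hoxb5 and Hoxb6, with Hoxb3os-201 covering nearly the same exonic bases as the last exons of Hoxb3-202.

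The map of annotated transcripts shows why the antisense genes need care. Whether the libraries kept the strand is not stated, and the quantification was run with default options, which set no strand, so reads from exonic bases that a gene shares with its antisense partner cannot be told apart. Hoxb3os-201 (2315 bases) shared 2250 exonic bases, 97.2% of its length, with Hoxb3-202. Hoxb3os-202 (1945 bases) shared 953 bases (49.0%) with Hoxb2-201, 599 bases (30.8%) with Hoxb2-202 and 59 bases (3.03%) with Hoxb3-202. Hoxb5os-201 (158 bases) shared 100 bases (63.3%) with Hoxb5-201. Hoxb5os-202 (596 bases) shared 0 bases with annotated exons of other genes of the cluster. Whether reads from introns or from beyond the annotated ends of the coding genes fell on it was not tested. No exonic bases were shared between members on the same strand.

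Reads could also be confused between the coding genes themselves, since they all encode the homeodomain that binds DNA. Over the most abundant transcripts, the longest exact run that any 2 of the 8 genes shared was 12 to 37 bases in the 28 pairs, with the longest between Hoxb6 and Hoxb7.

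The first question was whether the genes differ between stromal cells of the 2 organs. All 10 genes averaged at least 1 FPKM over all libraries and were tested by limma on log2(FPKM + 1), with p-values adjusted over 13345 genes. In pMSCs 8 were higher expressed, where 9.02% of all tested genes were higher, and 1 was lower, where 10.4% of all tested genes were lower. Hoxb9 was the lower gene, and Hoxb8 did not pass. Hoxb3os and Hoxb5os share exonic bases with Hoxb2, Hoxb3 and Hoxb5, so the 10 genes are not fully separate measurements. The calls of Hoxb3 and Hoxb3os were lost under 11 and 6 of 21 other settings. In 7 of the 10 genes every pMSC library lay above every iwatMSC library, as in 10.9% of all tested genes, and in Hoxb9 every pMSC library lay below, as in 13.4% of all tested genes. The median log2 difference of the 10 genes was 1.06, against -0.03 over all tested genes. Hoxb9 averaged under 1 FPKM in pMSCs and Hoxb5os under 1 FPKM in iwatMSCs, so these 2 genes passed the filter on low values through the other group, and the remaining 8 averaged 1 FPKM or more in both.

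**Figure D2:**
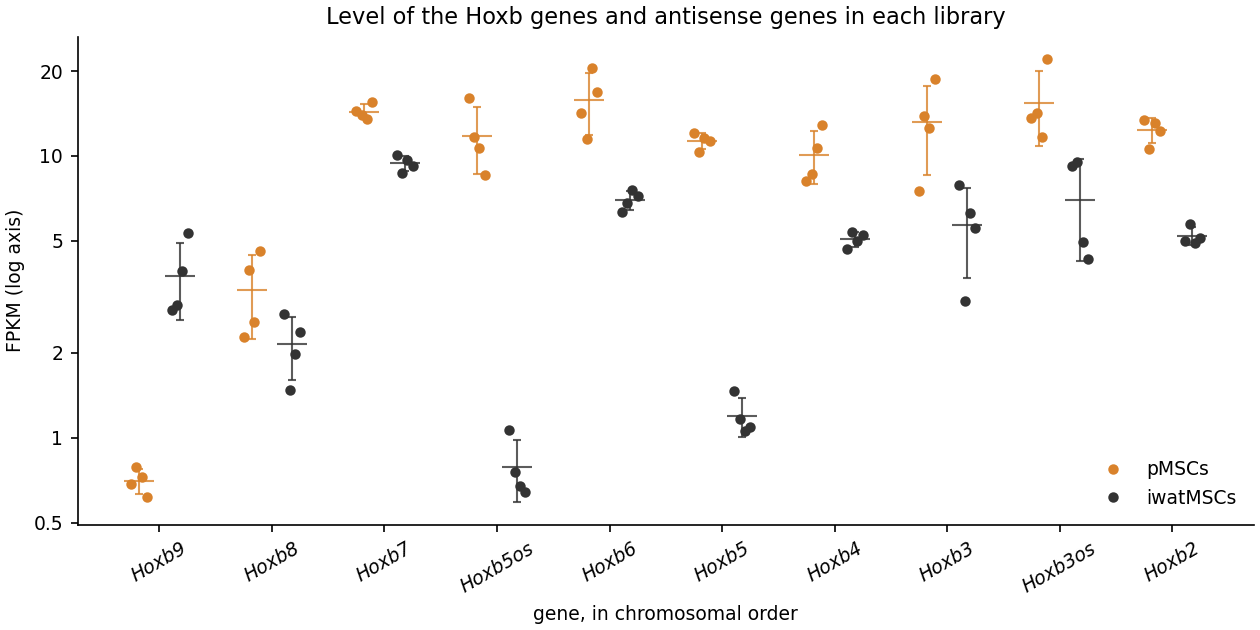
FPKM of each gene in each library on a log axis, with pMSCs (orange) left of iwatMSCs (black), in chromosomal order from Hoxb9 to Hoxb2; horizontal lines and bars are mean and SD of 4 libraries. Hoxb5 and Hoxb5os show the widest gap with pMSCs above, Hoxb9 is the one gene with pMSCs below, and the groups overlap in Hoxb8 and Hoxb3.

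The acinar and epithelial transcripts were highest in pMSC replicates 1 and 2. Without these 2 libraries, a setting chosen after seeing the data, 7 genes were higher and 1 lower. The log2 difference of Hoxb5os fell, with 2.57 without them and 2.81 with them. For Hoxb5 the log2 difference was 2.51 without them and 2.49 with them. That of Hoxb6 was 1.3 without them and 1.05 with them, and Hoxb3os was the gene that lost its call (adjusted p = 0.0899), with a log2 difference of 1.16 without them and 1.06 with them. The part of the pericyte and smooth muscle markers and of the mesothelial markers Upk3b, Lrrn4 and Upk1b, which were higher in all pMSC libraries, was not tested.

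The genes at the 3′ end are taken first. Hoxb2 (ENSMUSG00000075588, chromosome 11, 96350525 to 96354012, forward strand, GRCm38) is needed for facial motor neurons in the mouse hindbrain. Its level was 13.4, 10.6, 13.1 and 12.3 FPKM in pMSCs, against 4.98, 5.75, 4.93 and 5.13 FPKM in iwatMSCs. The pMSC libraries lay close together and all were well above the iwatMSC libraries. The means were 12.4 ± 1.26 and 5.20 ± 0.379 FPKM (SD, n = 4 each), a log2 difference of 1.10 ± 0.09 (SE, adjusted p = 4.33e-05). Hoxb2 shares exonic bases with Hoxb3os-202, as given above, and reads from those bases cannot be told apart.

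Hoxb3 (96323326 to 96347930, forward strand) acts with its paralogues in the hindbrain and in organs of the pharyngeal arches. It had 7.5, 13.9, 12.6 and 18.7 FPKM in pMSCs, against 7.86, 3.06, 6.26 and 5.57 FPKM in iwatMSCs. The groups overlapped, because pMSC replicate 1 was lower than iwatMSC replicate 1, and the spread inside each group was wide. The log2 difference was 1.08 ± 0.29 (adjusted p = 0.0300). This call was lost under 11 of 21 other settings, with adjusted p-values from 0.0123 to 0.107 over all of them, among them leaving out pMSC replicate 2 (0.0726), 3 (0.0640) or 4 (0.0728) or iwatMSC replicate 2 (0.0594), 3 (0.0554) or 4 (0.0651). It was also lost when the FPKM of Hoxb3os-201, which lies on the same bases, were counted to Hoxb3 (log2 difference 1.02 ± 0.32, adjusted p = 0.0532).

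Hoxb4 (96318267 to 96321638, forward strand), which expands blood stem cells when overexpressed, was at 8.14, 8.66, 10.7 and 12.9 FPKM in pMSCs, against 4.69, 5.39, 4.98 and 5.26 FPKM in iwatMSCs. The groups did not overlap, and pMSC libraries were spread more widely than iwatMSC libraries. Its log2 difference was 0.85 ± 0.13 (adjusted p = 0.00205, and 0.00144 to 0.0551 over 21 settings), and the call was lost with an unequal-variance test (adjusted p = 0.0551).

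The genes in the middle of the cluster follow. Hoxb5 (96303336 to 96306121, forward strand) marks long-term blood stem cells of mouse bone marrow. In pMSCs it was at 12.1, 10.3, 11.6 and 11.3 FPKM, against 1.47, 1.17, 1.06 and 1.09 FPKM in iwatMSCs. The lowest pMSC library was thus far above the highest iwatMSC library. The means were 11.3 ± 0.763 and 1.20 ± 0.185 FPKM, a 9.46-fold ratio, and the log2 difference was 2.49 ± 0.09 (95% interval 2.29 to 2.69, adjusted p = 2.40e-07). This was the largest difference among the 8 coding genes of the set.

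Hoxb6 (96292476 to 96301569, forward strand), a gene of the lateral plate mesoderm in the embryo, had 14.2, 11.5, 20.6 and 16.9 FPKM in pMSCs, against 6.32, 6.80, 7.55 and 7.23 FPKM in iwatMSCs. Every pMSC library was above every iwatMSC library. The log2 difference was 1.05 ± 0.15 (adjusted p = 0.00150, and 0.000607 to 0.0530 over 21 settings), and the call was lost with an unequal-variance test (adjusted p = 0.0530).

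Hoxb7 (96286623 to 96290162, forward strand) is expressed in the duct that forms the collecting system of the kidney. It had 14.5, 14.0, 13.5 and 15.5 FPKM in pMSCs, against 10.1, 8.68, 9.68 and 9.23 FPKM in iwatMSCs. The groups were apart, but the gap was narrow next to that of Hoxb5. Means of 14.4 ± 0.885 and 9.42 ± 0.610 FPKM gave a log2 difference of 0.56 ± 0.07 (adjusted p = 0.000834), the smallest difference that passed among the 10 genes.

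Hoxb8 (96281905 to 96285315, forward strand), whose loss causes excessive grooming in mice, did not pass. Its level was 2.28, 3.95, 2.58 and 4.61 FPKM in pMSCs, against 2.74, 1.48, 1.98 and 2.38 FPKM in iwatMSCs. The groups overlapped, with pMSC replicates 1 and 3 inside the iwatMSC range. The log2 difference was 0.45, with a 95% interval of 0.01 to 0.89 (adjusted p = 0.145).

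Hoxb9 (96271457 to 96276595, forward strand), at the 5′ end, patterns the rib cage together with its paralogues. It had 0.683, 0.785, 0.728 and 0.615 FPKM in pMSCs, against 2.84, 2.96, 3.92 and 5.33 FPKM in iwatMSCs. The pMSC libraries were uniformly low and the iwatMSC libraries all higher. The log2 difference was -1.45 ± 0.16 (95% interval -1.81 to -1.10, adjusted p = 0.000256). On this scale a low gene is drawn towards 0, and the log2 difference was -2.23 with a pseudocount of 0.1 and -0.61 with one of 5, while the ratio of the means was 0.187.

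**Figure D3:**
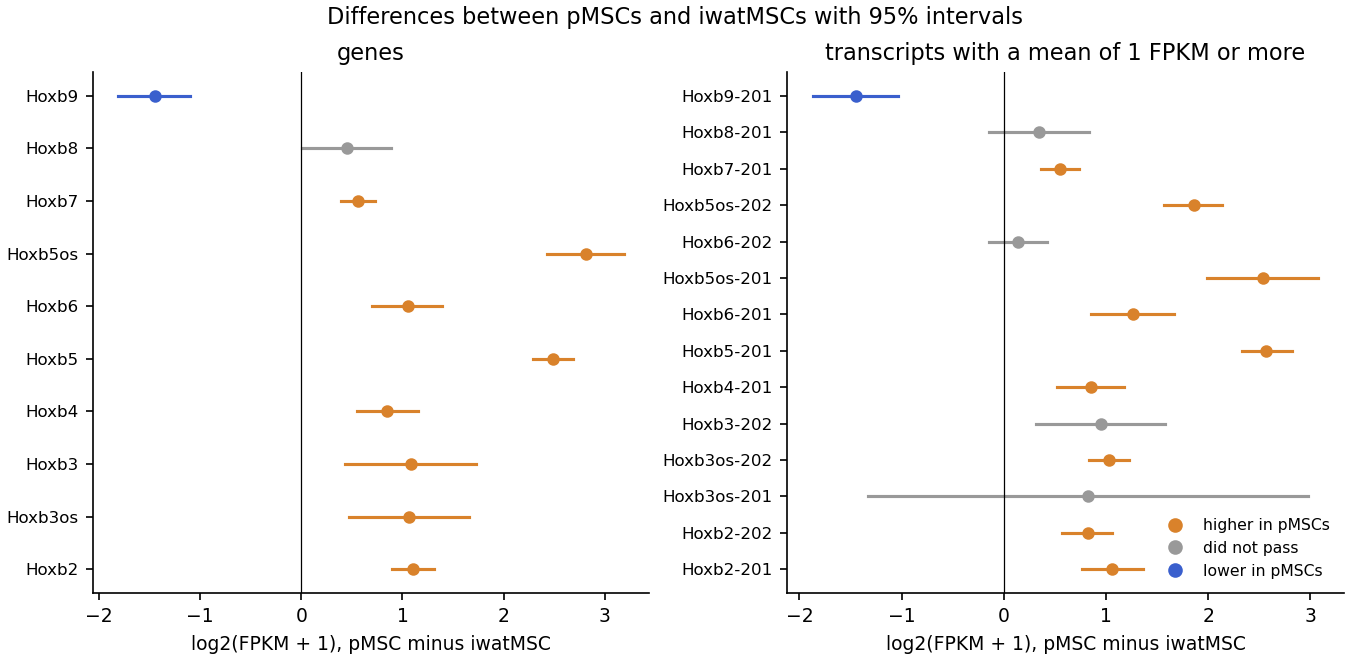
Log2 difference of FPKM + 1, pMSC minus iwatMSC, with 95% intervals, for the 10 genes (left) and the 14 tested transcripts (right), in chromosomal order; orange is higher in pMSCs, blue lower and grey did not pass. The values run down to -1.45 for Hoxb9 and up to 2.81 for Hoxb5os.

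Both listed antisense genes are non-coding. Hoxb5os (96291024 to 96306910, reverse strand) starts beyond the end of Hoxb5 and runs across Hoxb5 and Hoxb6. It was at 16.0, 11.7, 10.7 and 8.56 FPKM in pMSCs, against 1.07, 0.757, 0.673 and 0.643 FPKM in iwatMSCs. All pMSC libraries were far above all iwatMSC libraries, as for Hoxb5. The log2 difference was 2.81 ± 0.17 (95% interval 2.43 to 3.19, adjusted p = 7.05e-06), the largest of the 10 genes. With the most abundant transcript of each gene alone, Hoxb5 was at 2.57 and Hoxb5os at 2.54.

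Summed over their transcripts, Hoxb5os and Hoxb5 had about equal FPKM in pMSCs. Of the Hoxb5os FPKM in pMSCs, 59.5 to 78.5% belonged to Hoxb5os-201, which shares 63.3% of its bases with Hoxb5-201. The FPKM of Hoxb5os divided by those of Hoxb5 came to 1.32, 1.14, 0.921 and 0.755 in pMSCs, against 0.731, 0.649, 0.635 and 0.588 in iwatMSCs. The Hoxb5os level in pMSCs was highest in replicate 1 and lowest in replicate 4, while that of Hoxb5 hardly moved. For the antisense transcript that shares no annotated exonic bases with other genes of the cluster, Hoxb5os-202, FPKM were 3.43, 3.67, 3.71 and 3.46 in pMSCs, against 0.422, 0.165, 0.152 and 0.328 in iwatMSCs. This transcript alone thus also separated the groups widely, with a log2 difference of 1.86 ± 0.12 (adjusted p = 0.000188 over 24686 transcripts). Its FPKM divided by those of Hoxb5-201 came to 0.305 to 0.39 in pMSCs and 0.175 to 0.415 in iwatMSCs, and this quotient overlapped between the groups.

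Hoxb3os (96343072 to 96354691, reverse strand) crosses the end of Hoxb3 and the whole of Hoxb2. It had 13.6, 14.2, 11.7 and 22.1 FPKM in pMSCs, against 9.24, 9.51, 4.96 and 4.30 FPKM in iwatMSCs. The groups did not overlap, but pMSC replicate 4 and iwatMSC replicates 1 and 2 stood above the others of their group. The log2 difference was 1.06 ± 0.26 (adjusted p = 0.0219, and 3.31e-05 to 0.0966 over 21 settings). The call was lost under 6 of them, without pMSC replicates 1 and 2 as given above, without iwatMSC replicate 3 (0.0628) or 4 (0.0545), without pMSC replicate 4 (0.0523), with no filter (0.0544) and with an unequal-variance test (0.0966).

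The transcripts show where that spread lay. Hoxb3os-202 was at 10, 10, 11.6 and 9.88 FPKM in pMSCs, against 4.64, 4.39, 4.96 and 4.30 FPKM in iwatMSCs. Its libraries were tight in both groups and well apart, with a log2 difference of 1.03 ± 0.09 (adjusted p = 0.000559). Of its bases 49.0% lie on exons of Hoxb2-201, which was also higher in pMSCs, so its values are not free of those of Hoxb2. Hoxb3os-201, of which 97.2% lies on exons of Hoxb3-202, was at 3.63, 4.13, 0.0719 and 12.2 FPKM in pMSCs, against 4.6, 5.12, 0 and 0 FPKM in iwatMSCs. This transcript was listed at or near 0 in some libraries of each organ and among the more abundant ones in others, and it did not pass (log2 difference 0.82, 95% interval -1.33 to 2.98, adjusted p = 0.701).

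At the level of transcripts, 14 of the 22 annotated in the table averaged at least 1 FPKM. In pMSCs 9 were higher, where 2.79% of all tested transcripts were higher, and 1 was lower, where 2.75% of all tested transcripts were lower. Hoxb5-201, Hoxb5os-201 and Hoxb5os-202 averaged 0.926, 0.519 and 0.267 FPKM in iwatMSCs, and Hoxb9-201 averaged 0.703 FPKM in pMSCs. These transcripts passed the filter through the other group, so their calls partly follow from the filter. Hoxb5-201, the spliced coding transcript, had the largest log2 difference on this scale, 2.57 ± 0.11 (adjusted p = 1.48e-05). With a pseudocount of 0.1 Hoxb5os-201 (3.70) and Hoxb5os-202 (3.39) lay above Hoxb5-201 (3.37), and rescaled to TPM Hoxb5os-201 was at 3.12 and Hoxb5-201 at 3.02. Both transcripts of Hoxb2 were higher in pMSCs, the coding Hoxb2-201 by 1.06 ± 0.13 (adjusted p = 0.00283) and the intron-retaining Hoxb2-202 by 0.82 ± 0.11 (adjusted p = 0.00395). Hoxb5os-201, Hoxb4-201 and Hoxb7-201 were higher too, with log2 differences of 2.54, 0.85 and 0.55, and Hoxb9-201 was the lower one (-1.45, adjusted p = 0.00303). Without pMSC replicates 1 and 2, the calls of Hoxb9-201 (adjusted p = 0.0514), Hoxb7-201 (0.0949) and Hoxb2-202 (0.0580) were lost. Their log2 differences were -1.48, 0.55 and 0.83 without these libraries and -1.45, 0.55 and 0.82 with them.

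The 4 tested transcripts that did not pass were Hoxb3-202, Hoxb3os-201, Hoxb6-202 and Hoxb8-201. Hoxb3-202, the long coding transcript, was at 6.55, 8.88, 10.6 and 14.5 FPKM in pMSCs, against 5.02, 2.67, 5.78 and 5.37 FPKM in iwatMSCs. These groups did not overlap, yet the adjusted p was 0.0976. Hoxb8-201 had a log2 difference of 0.34 (95% interval -0.14 to 0.83).

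Hoxb6 has a pair of coding transcripts that start at different first exons. Hoxb6-201, the shorter one, was at 12.0, 9.39, 17.7 and 14.1 FPKM in pMSCs, against 4.37, 4.74, 5.20 and 5.09 FPKM in iwatMSCs, a log2 difference of 1.26 ± 0.18 (adjusted p = 0.00571). Hoxb6-202, which starts upstream, was at 2.13, 2.12, 2.86 and 2.74 FPKM in pMSCs, against 1.95, 2.06, 2.35 and 2.14 FPKM in iwatMSCs, with a log2 difference of 0.14 (95% interval -0.14 to 0.42). Hoxb6-201 therefore made up 81.6 to 86.1% of the FPKM of Hoxb6 in pMSCs and 68.9 to 70.4% in iwatMSCs. The shares did not overlap, and in an exact permutation test (two-sided, 70 assignments) the difference of 14.6 percentage points had p = 0.0286, the smallest this design can give, and 0.129 after adjustment over 9 genes.

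In Hoxb5 the transcripts differ in splicing. The spliced Hoxb5-201 held 93.2, 91.8, 86.6 and 97.7% of the FPKM of the gene in pMSCs, against 79.0, 76.0, 81.9 and 72.3% in iwatMSCs, and the rest belonged to the intron-retaining Hoxb5-202. Every pMSC share was above every iwatMSC share, with the same exact permutation p of 0.0286 and adjusted p of 0.129. Hoxb5-202 itself was low, with 0.262 to 1.55 FPKM in pMSCs and 0.192 to 0.308 FPKM in iwatMSCs. These levels overlapped, so the shares of Hoxb5 rest on small values. In the 7 other genes with several transcripts the p-values of the shares were 0.229 or more, and the share of Hoxb9 was 100% in every library. With Hoxb6 and Hoxb5 alone at the smallest possible p among 9 genes, their adjusted p could not fall below 0.129. Neither could thus pass, and the adjusted values do not decide whether their shares differ.

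Within a library, FPKM allow the genes to be ranked. The places of Hoxb3os and Hoxb5os in this order are uncertain. Their reads on shared bases cannot be told apart from those of Hoxb2, Hoxb3 and Hoxb5. In pMSCs the order was Hoxb6 (15.8 ± 3.89 FPKM), Hoxb3os, Hoxb7, Hoxb3, Hoxb2, Hoxb5os, Hoxb5 and Hoxb4 (10.1 ± 2.17 FPKM), and neighbours in that order did not differ beyond their spread. Hoxb8 (3.35 ± 1.11 FPKM) and then Hoxb9 (0.703 ± 0.072 FPKM) lay below them, each with a range that did not reach its neighbour. In iwatMSCs the order was Hoxb7 (9.42 ± 0.610 FPKM), Hoxb3os, Hoxb6, Hoxb3, Hoxb2, Hoxb4 and Hoxb9 (3.76 ± 1.15 FPKM), each overlapping the next. Hoxb8 (2.15 ± 0.540 FPKM) and Hoxb5 (1.20 ± 0.185 FPKM) followed without overlap, and Hoxb5os (0.786 ± 0.197 FPKM) overlapped Hoxb5.

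Hoxb5 and Hoxb9 thus changed places in this order between the organs. Hoxb5 held 12.2 to 16.6% of the summed FPKM of the 8 coding genes in pMSCs and 2.63 to 3.58% in iwatMSCs, and Hoxb9 held 0.663 to 1.07% in pMSCs and 6.92 to 12.9% in iwatMSCs. The FPKM of Hoxb9 divided by those of its neighbour Hoxb8 were 0.299, 0.199, 0.282 and 0.134 in pMSCs, against 1.04, 2, 1.98 and 2.23 in iwatMSCs. Hoxb7, although higher in pMSCs in level, held a smaller share there, 15.8 to 20% in pMSCs and 22.4 to 24.6% in iwatMSCs. The shares of Hoxb2, Hoxb3, Hoxb6 and Hoxb8 overlapped between the groups. That of Hoxb4 overlapped too, at 11.2 to 13.9% in pMSCs and 11.4 to 15.3% in iwatMSCs.

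Inside the groups the genes did not move as one. After each group was centred on its mean, the Pearson correlation of log2(FPKM + 1) over the 8 libraries ranged from -0.89 (Hoxb5os with Hoxb4) to 0.89 (Hoxb8 with Hoxb3) in 45 pairs, with a median of 0.08 and 24 pairs above 0. These correlations describe 8 libraries that also share their depth and culture, and no test was made.

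Outside the listed genes, the coding genes at both ends of the cluster were at or near 0. Hoxb1, at the 3′ end, was listed at 0 in all 8 libraries, and Hoxb13, beyond the 5′ end, was at 0 in pMSCs and at most 0.0577 FPKM in iwatMSCs. The flanking coding genes Ttll6 and Skap1 stayed at or below 0.084 FPKM. The non-coding RNA Gm53, between Hoxb13 and Hoxb9 (96251105 to 96264868), was at 0.0385, 0, 0 and 0 FPKM in pMSCs, against 1.24, 0.746, 2.48 and 1.85 FPKM in iwatMSCs. It lay on the iwatMSC side, as did its neighbour Hoxb9, but its mean was under 1 FPKM and it was not tested. The antisense RNA Gm11536, within Hoxb3, was at 1.21, 0.962, 1.18 and 0.639 FPKM in pMSCs, against 0.270, 0, 0.552 and 0.315 FPKM in iwatMSCs, and was not tested either. The processed pseudogene Gm11539 was tested and did not pass, with 6.21 ± 1.15 FPKM in pMSCs, against 6.60 ± 0.197 FPKM in iwatMSCs, and the small RNA genes Gm27898 and Gm27605 were at 0 in all libraries.

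The cluster also holds 2 microRNA genes, Mir196a-1 between Gm53 and Hoxb9 and Mir10a between Hoxb5 and Hoxb4. Their mature sequences from RefSeq (GRCm38.p6) are shown because both lie between the listed genes, with the seed, bases 2 to 8, in capitals:
miR-196a-5p (chr11:96265187-96265208, forward strand): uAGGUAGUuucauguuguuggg
miR-10a-5p (chr11:96317186-96317208, forward strand): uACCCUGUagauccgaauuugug

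The seeds of the 2 microRNAs differ. Mir196a-1 was listed at 0 in all pMSC libraries and at 0.0704, 0.422, 1.14 and 0.0749 FPKM in iwatMSCs, and Mir10a was at 0 apart from 0.474 FPKM in iwatMSC replicate 2. These libraries were enriched for mRNA and measure longer precursor RNA at best, not the mature microRNAs. The study measured mature microRNAs of these cells by separate small RNA sequencing. It reports miR-196a-5p as nearly exclusive to iwatMSCs and miR-10a-5p as enriched in pMSCs. The Mir10a values given here therefore do not stand for the mature level. In mouse, miR-196a is known to direct the cleavage of Hoxb8 mRNA. The site lies after the coding part of Hoxb8-201, at bases 2208 to 2229 of the transcript, and is shown with capitals where it pairs with miR-196a-5p and a small letter at a G:U pair:
Hoxb8-201: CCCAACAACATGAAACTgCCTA

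Of the 22 bases of this site 21 pair with the microRNA, 1 forms the G:U pair and 0 are unpaired. Exact matches to the miR-196a seed were also found after the coding part of Hoxb6-201, Hoxb6-202 and Hoxb7-201, before the coding part of Hoxb8-201 and in Hoxb7-202. Matches to the miR-10a seed were found after the coding part of Hoxb3-202, before that of Hoxb5-201 and in Hoxb3os-201. Such seed matches are common, with 15.9% of the longest transcripts of 21901 coding genes holding one for miR-196a-5p and 18.9% one for miR-10a-5p. Hoxb8, Hoxb7 and Hoxb6 had log2 differences of 0.45, 0.56 and 1.05 between the organs. No microRNA effect on any of them was tested.

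Promoter sequences from RefSeq (GRCm38.p6) were at hand for Hoxb8, Hoxb4 and Hoxb3os, 3 of the 10 genes. The window of Hoxb3os lies within Hoxb2, away from the starts of the measured Hoxb3os transcripts, and was left out. Common promoter letters and sites of known HOX regulators were searched on both strands. The box that places the start of transcription was read as TATAAA. The CAAT box, which many active promoters carry, was read as CCAAT. The site at which PBX and HOX proteins bind as a pair was read as TGATNNAT. The site of the caudal factors, which induce HOX genes of the trunk in the embryo, was read as TTTATNG. The half-site that retinoic acid receptors bind was read as AGGTCA. The windows are shown for Hoxb8, which did not pass, and Hoxb4, which was higher in pMSCs, with matches in capitals:
Hoxb8 (chr11:96281655-96281954, forward strand): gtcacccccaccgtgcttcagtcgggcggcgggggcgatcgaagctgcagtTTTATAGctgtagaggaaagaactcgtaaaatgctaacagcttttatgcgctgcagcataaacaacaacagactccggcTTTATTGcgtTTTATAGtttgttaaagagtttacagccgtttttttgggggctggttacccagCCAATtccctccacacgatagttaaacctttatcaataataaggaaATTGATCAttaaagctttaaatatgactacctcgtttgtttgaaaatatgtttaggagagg
Hoxb4 (chr11:96318017-96318316, forward strand): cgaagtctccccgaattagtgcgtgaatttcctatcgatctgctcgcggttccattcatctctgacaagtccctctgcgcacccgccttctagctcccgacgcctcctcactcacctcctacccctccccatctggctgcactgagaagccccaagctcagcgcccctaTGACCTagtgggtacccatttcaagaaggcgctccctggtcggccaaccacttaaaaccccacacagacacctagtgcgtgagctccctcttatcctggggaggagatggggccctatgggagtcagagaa

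The Hoxb8 window held 7 matches, 3 to the caudal site, 2 to TATAAA that overlap caudal sites on the same bases, 1 to CCAAT and 1 to the PBX-HOX site. The Hoxb4 window held 1 match, a half-site for retinoic acid receptors read on the other strand (TGACCT, -81 to -76 from the start). Among 32851 promoter windows of the same length, 10.9% held the caudal site, 13.6% TATAAA, 37.4% CCAAT, 8.85% the PBX-HOX site and 16.3% AGGTCA. These matches are a description of letters and carry no statement on binding.

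The next question was whether the Hoxb genes followed the other HOX genes. Of 29 Hoxa, Hoxc and Hoxd genes in the table, 17 were tested, 4 were higher in pMSCs and 12 were lower, beside 9.02% higher and 10.4% lower of all tested genes. Among the higher ones Hoxa2 averaged under 1 FPKM in iwatMSCs. Among the lower ones Hoxa7, Hoxa9, Hoxa10, Hoxc8, Hoxc9, Hoxc10, Hoxc11 and Hoxc13 averaged under 1 FPKM in pMSCs. These genes passed the filter through the other group, so their calls partly follow from the filter and are given as a description. Summed FPKM of the Hoxb genes were 72.8, 73.7, 85.4 and 92.8 in pMSCs, against 41.0, 35.3, 40.4 and 41.3 in iwatMSCs. They made up 43.8 to 49.7% of all HOX FPKM in pMSCs and 17.5 to 19.6% in iwatMSCs. The Hoxc genes held 4.79 to 6.04% in pMSCs and 62.1 to 64.5% in iwatMSCs, and the Hoxa genes held 43.1 to 49.8% in pMSCs and 13.5 to 14.9% in iwatMSCs.

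**Figure D4:**
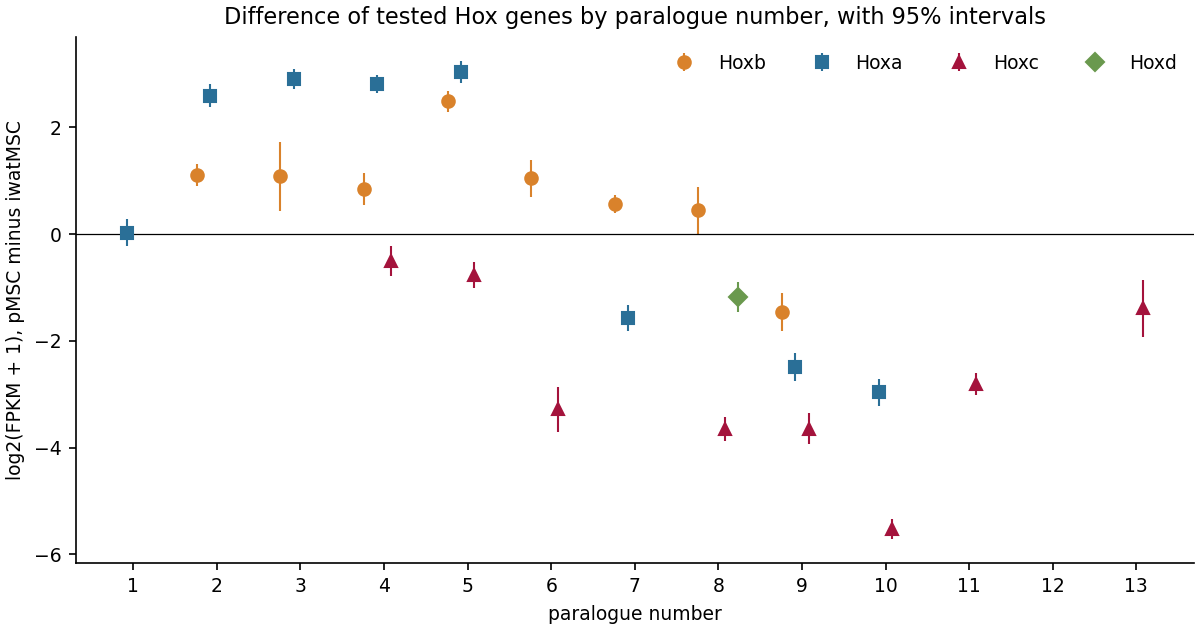
Log2 difference of FPKM + 1, pMSC minus iwatMSC, with 95% intervals, of every tested Hox gene by its paralogue number, for Hoxb (orange circles), Hoxa (blue squares), Hoxc (red triangles) and Hoxd (green diamond). Hoxb genes 2 to 5 lie at or above 0.85 and below their Hoxa paralogues, and Hoxb genes 4, 5, 6, 8 and 9 lie above their Hoxc paralogues.

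Hoxb genes and their paralogues of the same number were compared within each library as a difference of log2(FPKM + 1), in 12 pairs of which both genes were tested. The groups did not overlap in any of the 12 pairs, and each had an exact permutation p of 0.0286, also after adjustment over the pairs, which is the smallest value that 4 against 4 libraries allow. Hoxa2 averaged 0.517 FPKM in iwatMSCs, and Hoxa7, Hoxa9, Hoxc8, Hoxc9 and Hoxb9 averaged 0.809, 0.254, 0.157, 0.0531 and 0.703 FPKM in pMSCs, so these genes passed the filter through the other group. In the pairs that hold them the separation partly follows from the filter and is given as a description. The pairs went in 2 directions. For numbers 2 to 5, the Hoxb gene stood lower relative to its Hoxa paralogue in pMSCs than in iwatMSCs. Hoxa3, for example, was at 21.2 ± 1.70 FPKM in pMSCs, against 1.95 ± 0.183 FPKM in iwatMSCs, a log2 difference of 2.91, against 1.08 for Hoxb3, and the difference between the organs of Hoxb3 minus Hoxa3 was -1.83. For Hoxb2, Hoxb4 and Hoxb5 set against Hoxa2, Hoxa4 and Hoxa5 it was -1.49, -1.97 and -0.55. The value for Hoxb5 minus Hoxa5 depended on the pseudocount, with -0.27 at 0.1 and -0.76 at 5. The ratio of the means was 9.46 for Hoxb5 and 11 for Hoxa5.

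Set against Hoxc, Hoxd and the 5′ Hoxa genes, the Hoxb genes stood higher in pMSCs. Hoxc6 was at 2.96 ± 1.01 FPKM in pMSCs, against 36.9 ± 5.63 FPKM in iwatMSCs, and the difference between the organs of Hoxb6 minus Hoxc6 was 4.33. It was 4.10 for Hoxb8 minus Hoxc8, 3.26 for Hoxb5 minus Hoxc5, 2.13 for Hoxb7 minus Hoxa7, 1.63 for Hoxb8 minus Hoxd8 and 1.36 for Hoxb4 minus Hoxc4. Hoxb7 was higher in pMSCs where Hoxa7 was lower, with 0.809 ± 0.190 FPKM in pMSCs, against 4.35 ± 0.407 FPKM in iwatMSCs for Hoxa7. Hoxb9 was lower in pMSCs, but Hoxa9 and Hoxc9 were lower by more, and Hoxb9 minus Hoxa9 and Hoxb9 minus Hoxc9 differed by 1.04 and 2.19. The size of these values depends on the pseudocount, since several paralogues were near 0 in a group (Hoxc9 at 0.0531 ± 0.0378 FPKM in pMSCs), and Hoxb8 minus Hoxc8 was 6.35 with a pseudocount of 0.1 and 2.07 with one of 5.

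HOX proteins bind DNA together with PBX, MEIS and PREP proteins, and HOX loci are opened by retinoic acid receptors and Trithorax complexes and closed by Polycomb complexes. Of 50 such genes listed, 44 were tested, of which 5 were higher and 4 lower in pMSCs, with a median log2 difference of -0.00. Over all tested genes 9.02% were higher and 10.4% lower, so the shares called in this list were near those of all genes. Among the 8 tested cofactors Meis2, Meis1 and Pknox1 were higher. Meis2 was at 25.8 ± 2.80 FPKM in pMSCs, against 11.8 ± 0.653 FPKM in iwatMSCs (log2 difference 1.06, adjusted p = 4.12e-05), and Meis1 was at 11.5 ± 0.881 FPKM in pMSCs, against 5.66 ± 1.16 FPKM in iwatMSCs (0.93, adjusted p = 0.00103). Pknox1, which encodes PREP1, had a log2 difference of 0.39.

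Of the 6 tested upstream regulators, Rarb, a retinoic acid receptor gene that retinoic acid itself induces, was higher in pMSCs. It was at 9.70 ± 2.05 FPKM in pMSCs, against 1.56 ± 0.585 FPKM in iwatMSCs (log2 difference 2.07, adjusted p = 6.06e-05). Rarg and Rxrb were lower in pMSCs by smaller differences (-0.43 and -0.25, adjusted p = 0.0418 and 0.0236), and the caudal genes Cdx2 and Cdx4 were listed at 0 in all libraries. Among 16 tested Polycomb genes Cbx2, which encodes a subunit that reads the repressive histone mark, was lower in pMSCs, with 3.30 ± 0.247 FPKM, against 6.10 ± 0.420 FPKM in iwatMSCs (adjusted p = 0.000350). Of 9 Trithorax and opposing genes, Kdm6b, whose product removes that mark, was higher (log2 difference 0.48, adjusted p = 0.00800) and Men1, whose product menin is a scaffold of Trithorax-type complexes, was lower (-0.60, adjusted p = 0.00816). Rad21 and Smc1a, the most abundant of the 5 architecture genes, were at 63.9 ± 0.781 and 40.0 ± 1.94 FPKM in pMSCs, against 62.1 ± 3.55 and 34.4 ± 2.54 FPKM in iwatMSCs, and did not pass (adjusted p = 0.664 and 0.0623).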

How the data were processed

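RNA of 4 pMSC and 4 iwatMSC libraries was measured by sequencing of mRNA-enriched RNA on a BGISEQ platform. The authors aligned reads to GRCm38.p6 with STAR and deposited StringTie FPKM of Ensembl transcripts, as named in the submitters' processing notes and the study's methods. Whether the libraries kept the strand is not stated, StringTie was run with default options, and depth in reads is unknown. StringTie shares reads out among overlapping transcripts, so the values of a transcript depend on those annotated around it.

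Of 136535 transcripts, 99.88% were matched by identifier to GENCODE M21, and FPKM were summed per gene. Groups were taken from the labels, and replicates were numbered in accession order. Log2(FPKM + 1) of features averaging at least 1 FPKM was tested in R 4.3.3 with the trended, two-sided limma test (version 3.58.1). Benjamini-Hochberg adjustment ran over all features tested, and the threshold was 0.05. The study's own unadjusted unequal-variance test was used as an alternative, with adjustment. Transcript shares and paralogue differences were compared by two-sided exact permutation over 70 assignments. The tests were checked on simulated data.

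The genes and lists were chosen with earlier results of these data known. The text names all 10 genes, their transcripts with a mean of 1 FPKM or more, other genes of the cluster and its flanking genes, paralogues of the same number, and up to 4 called genes of each cofactor or regulator list, or its 2 most abundant genes if none passed. It also names the 5 genes most like the most abundant member. Motifs and seed matches were searched as exact letters. Other settings tried were a pseudocount of 0.1 or 5, a filter at 5 FPKM or none, other scalings, array weights, coding or most abundant transcripts only and leaving out each library. Some sequences of the coding genes are not reported here.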

Additional observations from a re-analysis of the deposited data

Results flagged for a closer look

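In 66 checks of groups of 4 values, 3 values stood far from the others of their group, and chance gives about 1 in 20. Hoxb8-201 in pMSC replicate 4 was at 4.61 FPKM, with the next pMSC library at 2.67 FPKM. Hoxb3os-202 in pMSC replicate 3 was at 11.6 FPKM, with the next at 10 FPKM, and all 4 pMSC values stayed above those of iwatMSCs. The share of Hoxb8-201 in the FPKM of Hoxb8 was 67.7% in pMSC replicate 2 and 100% in the other 7 libraries, the rest of that library being Hoxb8-202 at 1.27 FPKM, a transcript listed at 0 elsewhere.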

How the results depend on the processing

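Hoxb2, Hoxb5, Hoxb5os, Hoxb7 and Hoxb9 kept their calls under every alternative in which they were tested, Hoxb8 was never called, and none of the 10 genes changed direction. With an unequal-variance test 4 genes were higher, and 1428 of all genes and 761 of all transcripts were called, against 2589 and 1367. With the most abundant transcript alone, 1624 genes were called. Without pMSC replicates 1 and 2, chosen after seeing the data, 1468 genes and 534 transcripts were called. At a mean of 5 FPKM, Hoxb8 and Hoxb9 were not tested, so 0 genes and 0 transcripts were lower, and 0 transcripts were also lower with the unequal-variance test (Hoxb9-201, adjusted p = 0.0664) and without pMSC replicates 1 and 2 (0.0514). Cofactor and regulator genes lower in pMSCs numbered 2 rescaled to TPM, with the most abundant transcript alone and without pMSC replicates 1 and 2. Leaving out 1 library gave 6 to 8 higher Hoxb genes and 1 lower one each time, 9 higher and 1 lower Hoxb transcripts each time, 1793 to 2840 called genes, 864 to 1518 called transcripts and 2 to 4 lower cofactor and regulator genes. It turned the sign of 3 transcript shares that had not passed, with ranges of -4.10 to 5.64 points for Hoxb5os, -11.3 to 7.10 for Hoxb3os and -1.75 to 1.53 for Hoxb2. Rescaled to TPM, 1520 genes were higher and 1296 lower, with median-of-ratios scaling 1357 and 1167, against 1204 and 1385. The causes were not tested. No paired analysis was possible because the labels pair no library of one organ with one of the other.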

Other observations

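The 5 genes outside the HOX clusters whose log2(FPKM + 1) was most like that of Hoxb7, the member with the highest mean level over all 8 libraries of both organs, were Ltbp3, Gpam, Cux1, Myrf and Acot11, with Pearson r of 0.993, 0.992, 0.991, 0.991 and 0.990 over 8 libraries. Ltbp3, which encodes a protein that holds latent TGF-β in the matrix, was at 51.6 ± 2.34 FPKM in pMSCs, against 28.2 ± 2.58 FPKM in iwatMSCs. Cux1, a homeobox transcription factor gene, was at 21.3 ± 1.70 FPKM in pMSCs, against 9.75 ± 0.714 FPKM in iwatMSCs. With 2 groups of libraries such values are common, as 566 of 13314 compared genes had an r above 0.9 with Hoxb7.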
